A study of Homo sapiens with 6 samples.

Results

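The genes described here are the matrix metalloproteinases (MMP), the membrane-anchored and secreted disintegrin metalloproteinases (ADAM and ADAMTS) and the tissue inhibitors of metalloproteinases (TIMP). They were taken by symbol alone, as every symbol in the count files made of MMP and a number (with or without the letter A or B), ADAM or ADAMTS and a number, or TIMP1 to TIMP4. This gave 69 of the 24462 symbols in the files, namely 24 MMP, 22 ADAM, 19 ADAMTS and 4 TIMP genes, and none of the 69 had more than 1 row. The libraries were made from PC3, a human prostate cancer cell line that grew from a bone metastasis. A group of 3 libraries is labelled si-Control (cells given a non-targeting siRNA) and 3 are labelled si-CITED2 (cells given siRNA against CITED2, a coregulator that works with the acetyltransferases p300 and CBP). Both groups received 80 nM of siRNA, and no other treatment or allele differed between them by the labels. The groups stand for a single cell line, and the study's methods list a single siRNA sequence against CITED2, although the labels use the plural. The study describes the experiment as repeated independently, while the labels do not tie the libraries to separate cultures, so the p-values measure the spread between these libraries.

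Total counts ranged from 19508925 to 28936374 per library, so that 3 counts, taken as the smallest detectable number, equalled 0.104 to 0.154 CPM (the count scaled to the library total). The 69 genes held between 0.133% and 0.164% of the counts of a library. CITED2 mRNA was counted 966, 1108 and 657 times in the si-Control libraries against 893, 964 and 898 times in the si-CITED2 libraries. After normalization its level was 841.2 ± 61.4 (SD, n = 3) against 996.4 ± 82.4 (SD, n = 3), a log2 fold change of 0.24 (adjusted p = 0.0363, edgeR), so the targeted mRNA was not lower in the libraries labelled si-CITED2. That call was lost without si-Control replicate 1 or 3 or without si-CITED2 replicate 1 or 3 (log2 fold changes between 0.17 and 0.25). "Higher" and "lower" below therefore compare the libraries labelled si-CITED2 with those labelled si-Control, and not a measured loss of CITED2 mRNA. The study describes an immunoblot of CITED2 protein as its check of the knockdown, which is not among the data analysed here. Of the epithelial and PC3 markers, the keratin gene KRT8 had 15594 to 21687 counts, KRT18 9892 to 13696, EPCAM 1735 to 3462 and vimentin (VIM) 25080 to 37095. KRT8, KRT18 and VIM were higher in the si-CITED2 libraries by 0.24, 0.18 and 0.26 on the log2 scale, and EPCAM was lower (-0.33, adjusted p = 0.0011, edgeR). The prostate-specific antigen gene KLK3 had at most 2 counts in a library. TMPRSS2, also listed as a prostate luminal marker, had 7, 8 and 6 counts in si-Control against 1, 1 and 0 in si-CITED2. Those were too few to be tested.

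MMPs, ADAMs and ADAMTS enzymes are zinc-dependent proteinases outside the cell or at its surface. MMPs cut collagens and other matrix proteins. ADAMs shed growth factors, cytokines and receptors from the membrane. ADAMTS enzymes bind the matrix and cut proteoglycans and procollagens. TIMPs fill the active site of these enzymes, and TIMP2 also helps the membrane-type enzyme MMP14 to activate the precursor of MMP2. In prostate cancer these genes are studied for invasion and for growth in bone.

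The shared active site can be read in the messages themselves. In the longest coding transcript of each gene (GENCODE 29, GRCh38), a script searched the encoded protein for the zinc-binding signature of this enzyme superfamily, in which 3 histidines hold the metal ion. It was present in 23 of the 23 MMP genes with a coding transcript, in 12 of 20 ADAM genes and in 14 of 19 ADAMTS genes. A further 4 ADAMTS genes, ADAMTS1, ADAMTS4, ADAMTS9 and ADAMTS15, held a form with an asparagine in place of the glycine. The 30 bases that open this site are shown 5′ to 3′ for the 9 proteinase genes that differed between the groups. Capitals mark the codons of the first histidine and its glutamate, of the second histidine and of the glycine (asparagine in ADAMTS15).
ADAM19: CACGAGatgggcCACaactttGGCatgacc
ADAM10: CACGAAgttggaCATaactttGGAtcccca
ADAM15: CATGAGttgggcCACagcctgGGCctggac
MMP14: CACGAGctgggcCATgccctgGGGctcgag
MMP9: CATGAGttcggcCACgcgctgGGCttagat
MMP17: CACGAGtttggcCACgccattGGGttaagc
MMP24: CATGAGctgggcCACgcgctgGGActggag
ADAMTS6: CATGAGattggtCACaattttGGTatgaac
ADAMTS15: CACGAGctgggcCACgtgttcAACatgccc

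These sites start at coding base 1033 in ADAM19, 1147 in ADAM10, 1042 in ADAM15, 715 in MMP14, 1201 in MMP9, 742 in MMP17, 844 in MMP24, 1207 in ADAMTS6 and 1081 in ADAMTS15. The 11 members called below are these 9 and 2 TIMP genes. The 8 ADAM genes without the signature have products that are thought to act by binding rather than cutting. In the test were 3 of them, ADAM11, ADAM22 and ADAM23. None of these was called, but only 17.4% of all genes tested were, so 3 genes are too few to set apart from the others. At an unadjusted p under 0.05, ADAM11 alone of the 3 would count (log2 fold change -0.32, adjusted p = 0.0826, edgeR; DESeq2 called none of them).

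Of the 69 genes, 35 had enough reads to be tested. The quasi-likelihood test of edgeR called 11 of these at an adjusted p under 0.05, with 9 higher and 2 lower in the libraries labelled si-CITED2. In RNA from a whole culture, more cells expressing a gene and more RNA per cell cannot be told apart. That is 31.4% of the tested members, beside 17.4% of all 16314 genes tested. The 9 higher members made up 25.7% of those tested, beside 9.36% over all genes. The 2 lower members made up 5.71%, beside 8.09%. MMP9 is among the 9, although it entered the test only through the libraries where it was high and so had to differ. Over the genes that reached the filter's limit in both groups, 8 of 34 members were higher (23.5%, beside 9.19% of 16248 genes) and 2 lower. With a fold change over 1.5 required as well, 5 members were higher, or 4 without MMP9 (2.95% of all genes were) and none lower (0.772% of all genes were; at an unadjusted p under 0.05 MMP1 would count, and DESeq2 called none). The median log2 fold change was 0.06 over the tested members and 0.00 over all genes. By family, 3 of 11 MMP genes (MMP9 among them) rose and 1 fell, 2 of 11 ADAM genes rose and 1 fell, 2 of 10 ADAMTS genes rose, and 2 of 3 TIMP genes rose. The groups of 3 do not allow an exact permutation p below 0.1 for a single gene, so the calls rest on the fit across all genes.

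**Figure D1:**
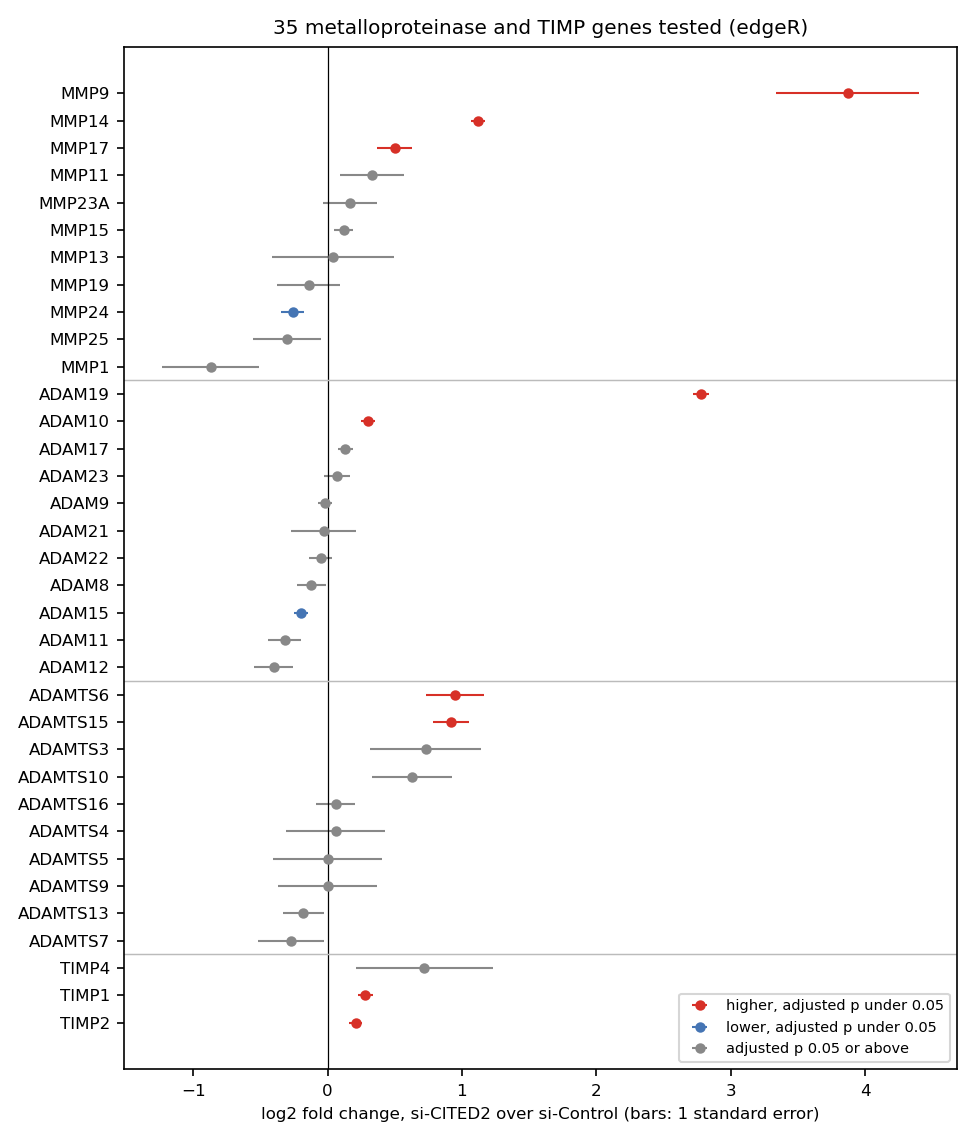
Log2 fold change (horizontal axis, si-CITED2 over si-Control) of the 35 tested genes, ordered within the MMP, ADAM, ADAMTS and TIMP families, with bars of 1 standard error. MMP9 (3.87) and ADAM19 (2.78) stand farthest to the right, and the genes called lower, MMP24 and ADAM15, lie within 0.3 of zero.

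The membrane-type MMPs, which are anchored at the cell surface, had 5 of 6 members in the test, of which 2 rose and 1 fell. Over all genes tested, 9.36% rose and 8.09% fell. MMP14 (also known as MT1-MMP), a collagenase of the cell surface, lies on chromosome 14 from 22836557 to 22849027 (GRCh38, plus strand). It had 2507, 2917 and 1901 counts in the si-Control libraries against 3862, 5524 and 4418 in the si-CITED2 libraries. Normalized to a common library size, these were 2228.2, 2348.4 and 2236.8 against 4689.5, 5278.1 and 4840.4. The groups lay far apart. The rise was 2.17-fold (log2 fold change 1.12, standard error 0.055, adjusted p = 2.42e-10, edgeR), and it stayed between 1.07 and 1.15 on the log2 scale with any 1 library left out. No exon of another annotated gene overlapped those of MMP14.

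MMP17, a glycolipid-anchored enzyme of the same group on chromosome 12, had normalized counts of 168.9, 177.1 and 196.5 in si-Control against 307.2, 230.3 and 229.0 in si-CITED2. The groups did not overlap, but si-CITED2 replicate 1 stood well above the other two. The log2 fold change was 0.50 (standard error 0.131, adjusted p = 0.0142, edgeR). It dropped to 0.35 without si-CITED2 replicate 1 (adjusted p = 0.0811, edgeR), and the call was also lost without si-Control replicate 1 (0.45) or replicate 2 (0.48). MMP24, a membrane-type enzyme known from the nervous system, moved the other way, with 480.8, 446.8 and 440.1 normalized counts in si-Control against 391.0, 362.1 and 393.3 in si-CITED2. Its log2 fold change of -0.26 (standard error 0.084) passed narrowly (adjusted p = 0.0438, edgeR). The call was lost in each of the 6 fits that left out a library (-0.28 to -0.22) and in DESeq2 (adjusted p = 0.0725). MMP24 also shares 799 of its 4414 exon bases with a gene on the opposite strand, listed in the files as MMP24-AS1, which had 1332 to 2096 counts. The strand setting of the counting is not given in the sources used here, so reads of the pair cannot be told apart. MMP15, a close relative of MMP14, had 956.1 ± 58.2 normalized counts (SD, n = 3) in si-Control against 1044.1 ± 73.7 (SD, n = 3) in si-CITED2. The groups overlapped, and the 95% interval of its log2 fold change ran from -0.02 to 0.27. MMP25, the membrane-type enzyme of leukocytes, was low, with 22 to 48 counts, and gave -0.30 (adjusted p = 0.481, edgeR). The antisense gene MMP25-AS1 shares 1454 of its 4126 exon bases and had 67 to 113 counts, more than MMP25 in every library, so the same limit holds here. MMP16 had at most 6 counts in a library and was not tested.

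The gelatinases MMP2 and MMP9 cut denatured collagen and the collagen of basement membranes. MMP9, on chromosome 20 from 46008908 to 46016561 (GRCh38, plus strand), had 3, 1 and 1 counts in si-Control against 22, 31 and 15 in si-CITED2. Every si-CITED2 library was above every si-Control library, yet the highest count was 31, so this is a change at the edge of detection. Summed over the libraries it was 5 against 68 counts, a ratio of 15.7 after normalization with a 95% exact interval of 6.42 to 50 that covers counting error only. MMP9 entered the test through the si-CITED2 libraries alone, since 0 of 3 si-Control libraries were over the limit of the filter on low counts. Its fitted log2 fold change of 3.87 is therefore given as a description, with no p. DESeq2 gave it no adjusted p, and a filter of 10 counts in every library leaves it out. The annotation places 430 of the 2336 exon bases of MMP9 under the antisense gene SLC12A5-AS1, which was not analysed here. MMP2 had 7, 3 and 3 counts in si-Control against 6, 4 and 4 in si-CITED2, too few to be tested (ratio 1.24, 95% exact interval 0.543 to 2.88).

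MMP9 is also a gene of neutrophils and macrophages, and markers of blood cells were counted beside it. The 8 leukocyte markers together had 45 to 55 counts in the si-Control libraries against 67 to 79 in the si-CITED2 libraries. Of these, MPO, ELANE and CD3E had at most 1 count in any library, and PTPRC had 0 in every si-CITED2 library. CSF1R had 11, 6 and 5 counts against 32, 28 and 9. CD14 had 15, 15 and 6 counts against 6, 9 and 9, and ITGAM 17, 7 and 6 against 7, 6 and 19, with overlapping groups for both. LYZ, the 1 leukocyte marker with enough reads to be tested, had a log2 fold change of 0.93 (adjusted p = 0.107, edgeR). The 3 hemoglobin genes HBA1, HBA2 and HBB moved with MMP9, from 1 to 6 counts in all to 102 to 146. The 5 fibroblast markers summed to 109 to 164 counts against 118 to 171, nearly all of them COL1A1, and the 3 endothelial markers to 10 to 22 against 12 to 13. Whether RNA of other cells had a part in the MMP9 counts was not tested.

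The remaining MMP groups gave no call among the 5 genes tested (MMP1 at an unadjusted p under 0.05 in edgeR, and none in DESeq2). With 17.4% of all genes called, 5 genes are too few to set these groups apart. Among the collagenases, which open the collagen triple helix, MMP1 had 34.7, 16.1 and 22.4 normalized counts in si-Control against 13.4, 14.3 and 12.1 in si-CITED2. The groups did not overlap, but the si-Control values spread over more than the gap between the groups, and the log2 fold change of -0.87 (95% interval -1.63 to -0.10) had an adjusted p of 0.116 (edgeR). MMP13 had 12, 14 and 7 counts in si-Control against 12, 5 and 12 in si-CITED2, which overlapped (adjusted p = 0.966, edgeR). MMP8 had at most 1 count in a library. Of the stromelysins, which cut proteoglycans and glycoproteins of the matrix, MMP3 had 1, 4 and 0 counts against 1, 0 and 1, and MMP10 at most 2. MMP11, a stromelysin that is activated inside the cell by furin, had 24 to 58 counts in si-Control against 43 to 58 in si-CITED2 (log2 fold change 0.33, adjusted p = 0.405, edgeR). CHCHD10, on the opposite strand, shares 218 of the 5176 exon bases of MMP11, had 1926 to 3289 counts and was lower (-0.20, adjusted p = 0.0202, edgeR), and reads of these genes cannot be told apart where they overlap. The matrilysins MMP7 and MMP26 had at most 2 and 0 counts.

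A stretch of chromosome 11 between 102520508 and 102955734 (GRCh38) holds 9 of the MMP members, namely MMP7, MMP20, MMP27, MMP8, MMP10, MMP1, MMP3, MMP12 and MMP13. All 9 together had only 24 to 54 counts per library, and only MMP1 and MMP13 had enough reads to be tested. By contrast MMP14, on chromosome 14, had at least 1901. MMP23A and MMP23B lie close together on chromosome 1, and MMP23B, the coding gene, had 0 counts in all 6 libraries. MMP23A, annotated as a pseudogene and a near copy of MMP23B, had 162 to 322 counts. How reads that match both copies were assigned is not given in the sources used here, so the division between them is uncertain. The MMP23A values overlapped widely, from 207.7 to 277.3 normalized counts in si-Control and from 177.5 to 391.0 in si-CITED2 (adjusted p = 0.63, edgeR).

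**Figure D2:**
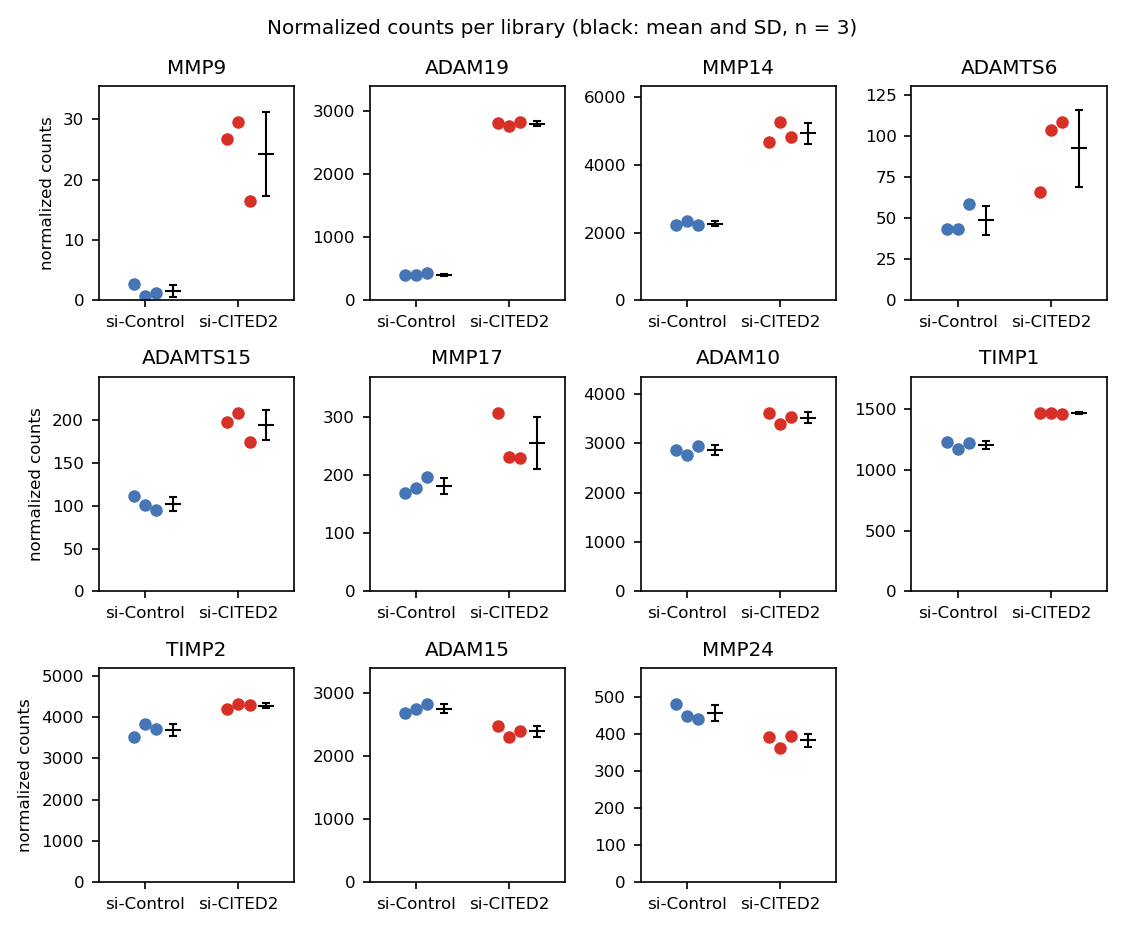
Normalized counts (vertical axes, each from 0) of the 11 genes with an adjusted p under 0.05, 1 point per library, with the mean and SD of each group of 3 in black. The genes were chosen by the difference between these same values, so the gap between their groups is no further result. The scales run from at most 29.6 normalized counts for MMP9 to 5278.1 for MMP14.

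Among the 11 ADAMs tested, ADAM19 had the largest fold change. ADAM19 (meltrin beta), a sheddase of neuregulins that is needed in the developing heart, lies on chromosome 5 from 157395534 to 157575775 (GRCh38, minus strand). It had 444, 502 and 363 counts in si-Control against 2318, 2886 and 2582 in si-CITED2. In normalized counts these were 394.6, 404.2 and 427.1 against 2814.7, 2757.5 and 2828.8. The spread within each group was small beside the distance between the groups. The rise was 6.87-fold (log2 fold change 2.78, standard error 0.060, adjusted p = 7.04e-15, edgeR) and held between 2.76 and 2.81 on the log2 scale with any 1 library left out. CYFIP2, on the opposite strand, shares 62 of the 7704 exon bases of ADAM19 and had 122 to 269 counts, fewer than ADAM19 in every library.

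ADAM10 and ADAM17 are the main sheddases of most cells, ADAM10 for Notch receptors and cadherins and ADAM17 for TNF and EGF receptor ligands. ADAM10 had 2871.6, 2754.2 and 2954.5 normalized counts in si-Control against 3618.5, 3396.7 and 3530.0 in si-CITED2, without overlap. The log2 fold change was 0.30 (standard error 0.050, adjusted p = 0.000469, edgeR). ADAM17 had 2223.7, 2551.3 and 2416.8 against 2632.5, 2619.0 and 2617.4 normalized counts. All si-CITED2 values were above all si-Control values, but the gap was smaller than the spread within si-Control, and the gene did not pass (log2 fold change 0.13, 95% interval 0.01 to 0.25, adjusted p = 0.133, edgeR). IAH1, on the opposite strand with 400 to 574 counts, shares 1323 of the 10750 exon bases of ADAM17. The difference between the changes of ADAM10 and ADAM17 was not tested.

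ADAM15, an ADAM that also binds integrins, was lower in si-CITED2, with 2683.2, 2758.2 and 2835.7 normalized counts against 2478.3, 2306.5 and 2407.0. The fall was small (log2 fold change -0.20, standard error 0.051, adjusted p = 0.0109, edgeR), and it no longer passed without si-CITED2 replicate 2 (-0.18, adjusted p = 0.0725, edgeR). ADAM9, a sheddase linked to prostate cancer, was the most counted of the 69 genes. Its 10260 to 14072 counts in si-Control against 8849 to 12124 in si-CITED2 gave overlapping groups after normalization, with a 95% interval of the log2 fold change from -0.13 to 0.09. ADAM12, a second meltrin like ADAM19, had 227.5, 283.4 and 354.2 normalized counts in si-Control against 213.7, 194.9 and 245.4 in si-CITED2. These overlapped (log2 fold change -0.40, adjusted p = 0.0725, edgeR), and without si-Control replicate 1 the gene passed (-0.54, adjusted p = 0.0134, edgeR). The non-catalytic ADAM11, ADAM22 and ADAM23 are known from the nervous system. ADAM11 had 262.8 ± 31.8 against 209.4 ± 19.4 normalized counts (SD, n = 3 each) and passed without si-Control replicate 2 alone (-0.42, adjusted p = 0.0427, edgeR). The intervals of ADAM22 (-0.24 to 0.13) and ADAM23 (-0.14 to 0.27) lay on both sides of zero.

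The ADAMTS genes were expressed at low levels, and 10 of 19 were tested. ADAMTS15, one of the enzymes that cut the large proteoglycans aggrecan and versican, had 111.1, 100.6 and 95.3 normalized counts in si-Control against 197.9, 208.3 and 174.2 in si-CITED2. No value of si-CITED2 came near the si-Control range, and the level rose 1.89-fold (log2 fold change 0.92, standard error 0.134, adjusted p = 0.000123, edgeR). ADAMTS6, a relative of ADAMTS10, had 43.6, 43.5 and 58.8 against 65.6, 103.2 and 108.5. Here the lowest si-CITED2 value stood close to the highest si-Control value, and the rise was 1.93-fold (log2 fold change 0.95, standard error 0.216, adjusted p = 0.00518, edgeR). Both calls were kept in each of the 6 fits with a library left out (0.85 to 0.99 for ADAMTS15 and 0.83 to 1.14 for ADAMTS6). The other aggrecanases tested had wide 95% intervals of the log2 fold change on both sides of zero, namely -0.72 to 0.84 for ADAMTS4, -0.86 to 0.85 for ADAMTS5 and -0.79 to 0.79 for ADAMTS9. The interval of ADAMTS9 may be too narrow. Its standard error, taken from the F statistic at an estimate near zero, was 0.371 in the main fit but 0.484 without TMM. ADAMTS10 had a log2 fold change of 0.63 (adjusted p = 0.172, edgeR). ADAMTS3, a procollagen N-proteinase, had 0.73 (adjusted p = 0.267, edgeR) from 8 to 24 counts per library. ADAMTS13, which trims von Willebrand factor, and ADAMTS16 had intervals of -0.50 to 0.14 and -0.25 to 0.37. No ADAMTS gene fell at an adjusted or an unadjusted p under 0.05 in edgeR or at an adjusted p in DESeq2. Of all genes tested, 8.09% fell at an adjusted p under 0.05 in edgeR.

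Of the TIMPs, 2 of the 3 tested rose by small amounts with little spread between libraries (9.36% of all genes rose). TIMP1, an inhibitor of many but not all MMPs, lies on the X chromosome from 47582313 to 47586789 (GRCh38). It had 1226.5, 1168.2 and 1214.3 normalized counts in si-Control against 1466.8, 1466.7 and 1457.2 in si-CITED2. The log2 fold change was 0.28 (standard error 0.055, adjusted p = 0.00147, edgeR). TIMP2 had 3524.0, 3820.2 and 3714.6 against 4199.0, 4317.8 and 4283.8, again without overlap, and the change was 0.21 on the log2 scale (standard error 0.049, adjusted p = 0.00595, edgeR). Another gene on the same strand, CEP295NL, shares 198 of the 5633 exon bases of TIMP2 and rose as well (log2 fold change 0.41, adjusted p = 0.00114, edgeR), with 388 to 662 counts. TIMP3, the inhibitor that binds the matrix and blocks ADAM17 and aggrecanases, had 20, 7 and 6 counts against 8, 2 and 6 and was not tested. TIMP4 had 23, 10 and 8 against 14, 8 and 36 counts, where si-CITED2 replicate 3 alone was high (log2 fold change 0.72, adjusted p = 0.397, edgeR). Without that library it was -0.09.

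Levels of different genes were compared as counts scaled to exon length and library size (RPKM), with lengths from GENCODE 29, which may differ from the annotation behind the counts. Each length was that of all annotated exons of a gene merged, and the transcripts in use may be shorter. The order of different genes therefore depends on that choice, while the change of a gene between the groups does not. ADAM9 had the highest level, with 71.5 ± 2.7 RPKM in si-Control against 69.7 ± 3.68 in si-CITED2 (SD, n = 3 each). TIMP1 (33.3 ± 0.648 against 40 ± 0.208 RPKM) and TIMP2 (27.9 ± 1.35 against 31.9 ± 0.422) followed in si-Control. MMP14 went from 21.7 ± 0.781 to 46.6 ± 2.87 RPKM. By these lengths it stood below both TIMPs in si-Control and above both in si-CITED2. The lengths used were 4464 bases for MMP14 and 1541 for TIMP1, and other lengths were not tried. ADAM15 came next after MMP14 in si-Control at 17.9 ± 0.597 RPKM, and had 15.3 ± 0.565 in si-CITED2. ADAM19 went from 2.26 ± 0.102 to 15.3 ± 0.205 RPKM. The spread between libraries does not cover error in the lengths, so ADAM19 and ADAM15 cannot be said to have equal levels. ADAMTS15, the highest ADAMTS gene in si-CITED2, reached 1.44 ± 0.131 RPKM, and MMP1 had 0.527 ± 0.2 in si-Control.

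Summed over the 24 MMP genes, the level was 51, 48.7 and 48 RPKM in si-Control against 80.6, 77.4 and 70.7 in si-CITED2. MMP14 made up 41.4%, 46.4% and 44.6% of these sums in si-Control against 55%, 64.4% and 64.5% in si-CITED2. The uncertain MMP23A held between 10.4% and 22.6%. The 22 ADAM genes summed to 119, 123 and 130 RPKM in si-Control against 130, 134 and 138 in si-CITED2, so the ranges met. Within them ADAM19 went from 1.82%, 1.83% and 1.82% to 11.8%, 11.3% and 11.2%. The sum of the TIMPs was 60.8, 61.9 and 62.2 against 72.2, 72.6 and 72.9 RPKM. The ratio of MMP14 to TIMP2 in RPKM was 0.798, 0.776 and 0.76 in si-Control against 1.41, 1.54 and 1.43 in si-CITED2, and the ratio of MMP14 to all 4 TIMPs was 0.347, 0.365 and 0.344 against 0.614, 0.686 and 0.626. These sums and ratios are descriptions of RNA levels, depend on the lengths used and were not tested. The ratios do not measure how far MMP14 was inhibited.

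**Figure D3:**
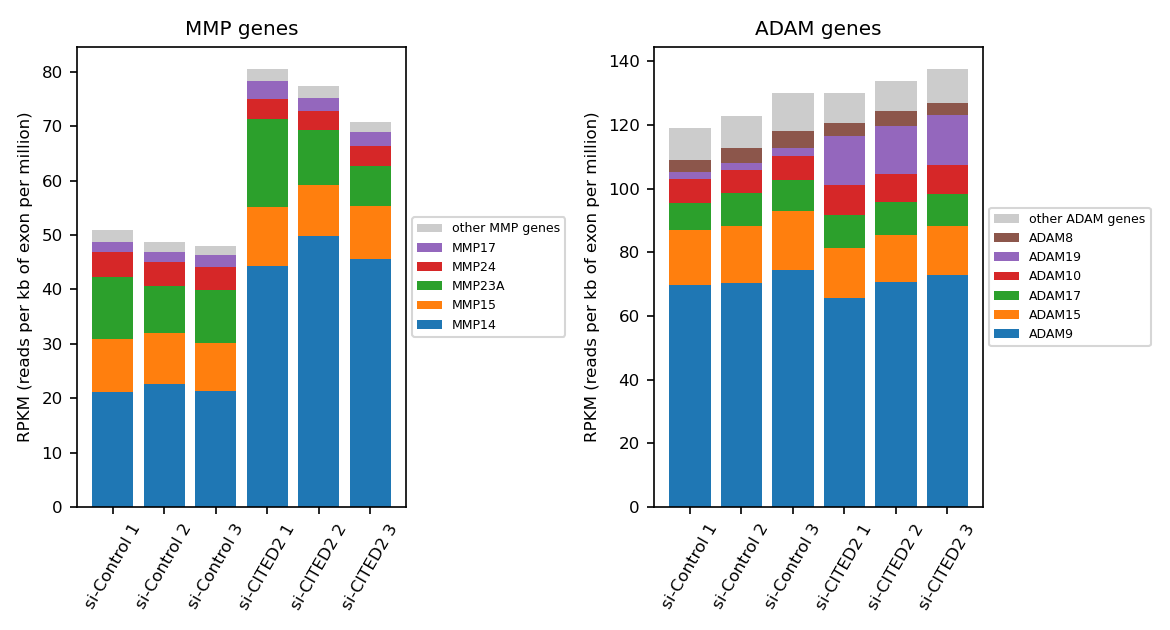
RPKM (vertical axes, from 0) of the MMP genes (left) and the ADAM genes (right) in each of the 6 libraries, stacked by gene, with all remaining members of the family in grey. MMP14 fills 41.4% to 46.4% of the MMP bars in si-Control against 55% to 64.5% in si-CITED2, and ADAM19 appears as a broad band in the si-CITED2 bars on the right.

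The 58 members outside the calls divide into 24 that were tested and 34 that were not. Of the 24, the 11 genes with at least 100 normalized counts in a group had log2 fold changes between -0.40 (ADAM12) and 0.17 (MMP23A), with standard errors up to 0.201. The 13 below that level had standard errors of 0.234 to 0.512, so that only large differences could have been detected in them. Among the 34 genes not tested, 8 had 0 counts in all 6 libraries (ADAM2, ADAM29, ADAM5, ADAM6, MMP12, MMP23B, MMP26 and MMP27). By depth this allows levels up to 0.104 to 0.154 CPM. That bound does not hold for MMP23B, whose reads may have been counted under MMP23A. A further 18 stayed under 10 counts in every library, and 8 reached 10 counts (ADAM28, ADAM32, ADAMTS2, ADAMTS12, ADAMTS14, ADAMTS17, ADAMTS18 and TIMP3). ADAM28, a sheddase of leukocytes and epithelia, was uneven, with 2, 25 and 2 counts in si-Control against 5, 9 and 49 in si-CITED2.

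These enzymes are activated, held back and carried to the surface by other proteins. A list of 32 such genes was described beside the members: convertases and the plasmin system, which remove the propeptides, inhibitors other than TIMPs, the MMP inducer BSG, the escorts of ADAM17 and ADAM10, and the ADAMTS-like proteins, which lack the catalytic domain. The listed inhibitors need not act on the metalloproteinases themselves. Of the 27 that were tested, 12 rose and none fell in the libraries labelled si-CITED2, which is 44.4% of those tested beside 9.36% of all genes. At an unadjusted p under 0.05 in edgeR, PCSK6 would count as lower, and DESeq2 called none lower. The list was written with earlier results of these data known, and some of its genes had been seen to move.

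FURIN, the convertase that activates MMP14, ADAM19 and most of their relatives inside the cell, had 2414, 2728 and 1867 counts in si-Control against 2990, 4112 and 3415 in si-CITED2. Its normalized level went from 2179.5 ± 29.5 to 3767 ± 150.8 (SD, n = 3 each; log2 fold change 0.79, adjusted p = 7.64e-09, edgeR). PLAU (urokinase) had a log2 fold change of 0.90 and its receptor gene PLAUR of 0.79, while PCSK7 had 0.01 and its groups overlapped. The inhibitor SPOCK1 (testican) had 1, 7 and 1 counts in si-Control against 67, 105 and 84 in si-CITED2. Like MMP9 it entered the test only through the si-CITED2 libraries, so its fitted log2 fold change of 4.98 is a description. Over the genes that reached the filter's limit in both groups, 11 of 26 on the list were higher (42.3%, beside 9.19% of 16248 genes). TFPI2 (1.33) and SERPINE2 (1.26), which were listed as proteinase inhibitors and not as inhibitors of metalloproteinases alone, rose. RECK, a membrane-anchored inhibitor of MMP14, MMP2 and MMP9, rose by less (0.40, adjusted p = 0.00565, edgeR). PCSK5, PLAT and SPOCK2 did not pass (log2 fold changes 0.43, 0.38 and -0.29).

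RHBDF2, which carries ADAM17 to the surface, had a log2 fold change of 0.36 and FRMD8, which stabilizes that complex, 0.26 (adjusted p = 0.000757 and 0.0207, edgeR). RHBDF1, the relative of RHBDF2, had 0.23 (adjusted p = 0.127, edgeR). Of the tetraspanins that escort ADAM10, TSPAN15 rose (0.42, adjusted p = 0.000667, edgeR), while TSPAN5, TSPAN14, TSPAN17 and TSPAN33 had log2 fold changes between 0.04 and 0.09 and overlapping groups. TSPAN10, a low-count member of that set, had 37.3, 44.3 and 42.4 normalized counts in si-Control against 57.1, 58.3 and 57.0 in si-CITED2. These groups did not overlap, but its log2 fold change of 0.47 did not pass (adjusted p = 0.128, edgeR). ADAMTSL3 (0.95) and ADAMTSL5 (0.36, adjusted p = 0.0486, edgeR) rose among the ADAMTS-like genes. BSG, which induces MMPs in neighbouring cells, was near identical in both groups, at 12209.7 ± 175.6 and 12206 ± 844.6 normalized counts (SD, n = 3 each).

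**Figure D4:**
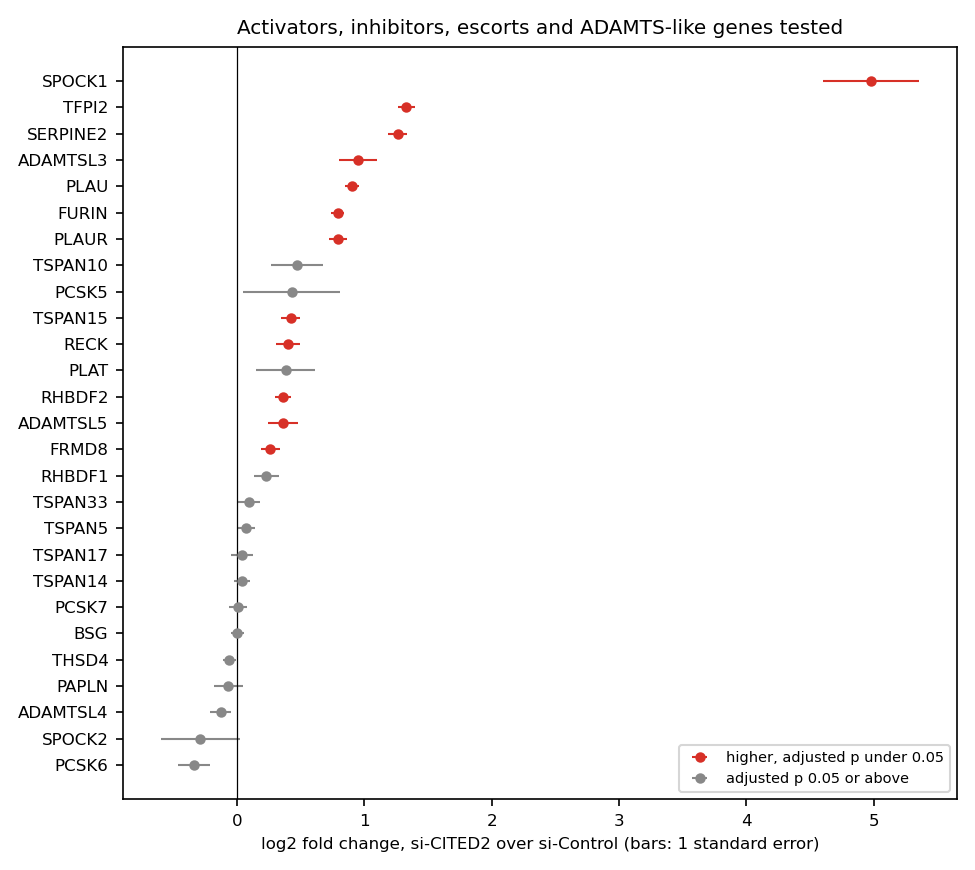
Log2 fold change (horizontal axis, si-CITED2 over si-Control) of the 27 tested activators, inhibitors, escorts and ADAMTS-like genes, with bars of 1 standard error. The 12 genes called higher run from FRMD8 (0.26) to SPOCK1 (4.98), and no gene is called lower.

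Many MMP promoters are known for a site of the AP-1 transcription factor close to the start. The letters TGANTCA (a palindrome apart from its centre, so that a match covers both strands) were searched in the promoters of the RefSeq table (GRCh38.p14, 250 bases before to 50 after the start). The table held 39 of the 69 members, and 4 of these contained the letters (10.3%, beside 7.71% of all 35116 promoters). The centre N allowed any base, so these are loose matches and not shown to be AP-1 sites. They were in ADAMTS12, MMP10 and MMP20, with an A at the centre, and in MMP7, with a G. None of these genes had enough reads to be tested. The table held 7 of the 11 called members, and none of the 7 contained the letters. With the letters in 7.71% of all promoters, 7 genes are too few to set apart from the others. The members missing from the table were not searched.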

How the data were processed

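RNA of PC3 cells was extracted with Trizol and made into libraries with a SMARTer mRNA-seq kit, per the labels. Each library's file, as deposited, holds unnormalized read counts by gene symbol. TopHat, edgeR and the build hg19 are named in the submitters' processing notes with no version or role. The counting program, the annotation and the strand setting are not given in the sources used here. The files list 25737 rows for 24462 symbols, and for 286 symbols with several rows the row with most counts was kept (no member was among them).

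The test used edgeR 4.0.16 in R 4.3.3 (filterByExpr, TMM, glmQLFit and glmQLFTest, no block) over all 16314 genes that passed the filter, with Benjamini-Hochberg adjustment and a threshold of 0.05. To normalize, each count was divided by the library's TMM-corrected size, then scaled to the average corrected size. Standard errors and 95% intervals come from the F statistic. Scripts were tested on simulated data. Total counts were 19508925 to 28936374 per library, and intervals of count ratios cover counting error only. No 2 libraries of a group were duplicates (chi-square over degrees of freedom from 2.89 upward). Places, exon lengths and coding sequences are from GENCODE 29 (GRCh38), a later build than that of the counts, and promoters from RefSeq. All 69 symbols matched GENCODE.

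The members and the lists were chosen with earlier results of these data known. The rule for named genes gave values in every library for each member with an adjusted p under 0.05 and for MMP1, MMP2, MMP3, MMP9, MMP13, MMP14, ADAM10, ADAM17 and TIMP1 to TIMP3 whatever their p. It also named untested members that reached 10 counts and called regulators. Other named genes were chosen after their values were seen. The alternatives tried were a block for replicate number, DESeq2 1.42.0, no TMM, RLE factors, no filter, at least 10 counts in every library, summed rows, a fold over 1.5, leaving out each library and, added after seeing the data, counting only genes over the filter's limit in both groups. Protein sequences were not used here, and a few listed genes that are not members are not reported here.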

Additional observations from a re-analysis of the deposited data

How the results depend on the processing

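The number of members called higher (9) was 8 to 9 in the 6 fits that left out a library and within 1.5 times the main count under every other setting except a fold change over 1.5, which left 5. The number called lower (2) was 0 to 2 in the fits that left out a library, 1 in DESeq2 and 0 with a fold change over 1.5. ADAM10, ADAM19, ADAMTS6, ADAMTS15, MMP14, TIMP1 and TIMP2 kept their calls in every alternative fit. MMP24 lost its call with the replicate number as a block (adjusted p = 0.0623, edgeR), in DESeq2 (0.0725) and without a filter (0.0502, edgeR). ADAM12 gained one with the replicate block (0.0372) and without a filter (0.0313). Same-numbered libraries did not deviate together (Pearson's r across genes -0.038, 0.034 and -0.011). These values cannot settle whether such libraries were prepared together. With the replicate block, 9 members were higher and 2 lower, and no library correlated with its own number at over 0.034. Regulators called higher ranged from 10 to 11 and those called lower from 0 to 1 without a library (1 without si-Control replicate 1), and 1 was lower without a filter. The rise of CITED2 missed the threshold without TMM (0.22, adjusted p = 0.0518, edgeR) and ranged from 0.17 to 0.29 without a library. Leaving out genes over the filter's limit in 1 group only, chosen after seeing the data, removed MMP9 and SPOCK1 from the counts. Depth limits the 26 members under 10 counts in every library, of which 8 had no count at all. For MMP23B, the unknown division of reads with MMP23A is a further limit.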
